A study of Mus musculus with 9 samples.

Results

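The 10 genes described here encode a set of lysosomal proteases of mouse lung, not all of them, and the main secreted inhibitor of the cysteine proteases. They are cathepsin D (Ctsd), the cysteine cathepsins B, L, S, K, C, H and Z (Ctsb, Ctsl, Ctss, Ctsk, Ctsc, Ctsh, Ctsz), legumain (Lgmn) and cystatin C (Cst3). They were chosen by gene name, and each of the 10 names matched 1 of the 32671 genes of the deposited table. The samples are poly(A) RNA of whole lungs, taken at day 21 from wild-type C57BL/6 mice of 3 groups, with 3 libraries in each group. Control mice received saline. The bleomycin group was challenged with bleomycin, a DNA-damaging drug used to produce lung fibrosis. Mice of the remaining group, here called LNP, were also challenged with bleomycin and then treated with inhaled lipid nanoparticles labelled Cas9/gSting and, in the design, mCas9/gSting@DOPS, Cas9 being a nuclease that is directed by a guide RNA. The series title names macrophages as the target of the particles and the STING pathway, which responds to DNA in the cytosol, as what they modulate. The sources used here do not give age, sex, doses or treatment times. Particles without the guide were not analysed here, so the guide and the carrier cannot be told apart.

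Cathepsins are made as inactive precursors, carried to the lysosome by mannose 6-phosphate receptors and activated there by cleavage at acid pH. Cathepsin D uses aspartate residues for catalysis, whereas the other cathepsins described here and legumain use a cysteine. Macrophages are rich in many of these enzymes, which break down engulfed proteins, trim antigens and, once secreted, can cut elastin and collagen of the lung matrix. Cystatin C is secreted by most cell types and blocks the cysteine cathepsins outside cells.

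The libraries held between 56047830 and 69404903 gene counts. Whether the 3 samples of a group came from different animals is not said in the labels, and p-values therefore cover the spread between these samples, which may be technical. Sftpc, the surfactant gene that defines alveolar type 2 cells, was abundant in every library, at 3760 CPM (counts scaled to library size) or more. Sting1, the gene named by the guide, ranged from 40.5 to 53.8 CPM in bleomycin and from 44.3 to 62.0 CPM in LNP libraries, so its RNA level does not check the label. One library, LNP replicate 3, differed from the rest. Its 10 skeletal muscle markers summed to 8153 CPM, against at most 53.9 CPM elsewhere, and its 9 squamous epithelium markers to 1861 CPM, against at most 41.3 CPM elsewhere. Calls of the 10 genes in comparisons with LNP are therefore given with and without it, and other results on LNP libraries only in part.

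After bleomycin, 8 of the 10 genes rose, and Ctsc and Cst3 did not pass the test. Ctsk and Ctss rose most, by 2.75 ± 0.21 and 2.75 ± 0.14 (SE) on the log2 scale, followed by Ctsh, Lgmn, Ctsd, Ctsb, Ctsl and Ctsz. In the LNP group Ctsd, Ctss, Ctsb and Ctsz lay at or near their bleomycin levels, and Ctsk was lower than in the bleomycin group in all 3 libraries. Ctsh, Lgmn and Ctsl lay between control and bleomycin in LNP replicates 1 and 2 and nearer to or within the bleomycin range in replicate 3. Together the 10 genes took 0.315% to 0.357% of all counts in control, 0.887% to 0.907% in bleomycin and 0.771%, 0.946% and 1.01% in LNP replicates 1, 2 and 3. In whole tissue, more cells of a type and more RNA per cell cannot be told apart.

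The test was edgeR's quasi-likelihood F test on the gene counts of all 9 libraries, with Benjamini-Hochberg adjustment over the 20794 genes that passed the filter on low counts, and a gene was called at an adjusted p under 0.05. All 10 genes passed that filter. In bleomycin against control, edgeR called 15.2% of all genes tested higher and 18.5% lower, against 8 and 0 of these 10. The median log2 fold change of the 10 genes was 1.61, against -0.05 over all genes tested. The 8 called genes were also those whose bleomycin libraries all lay above the control libraries, which held for 25.9% of all genes tested.

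**Figure D1:**
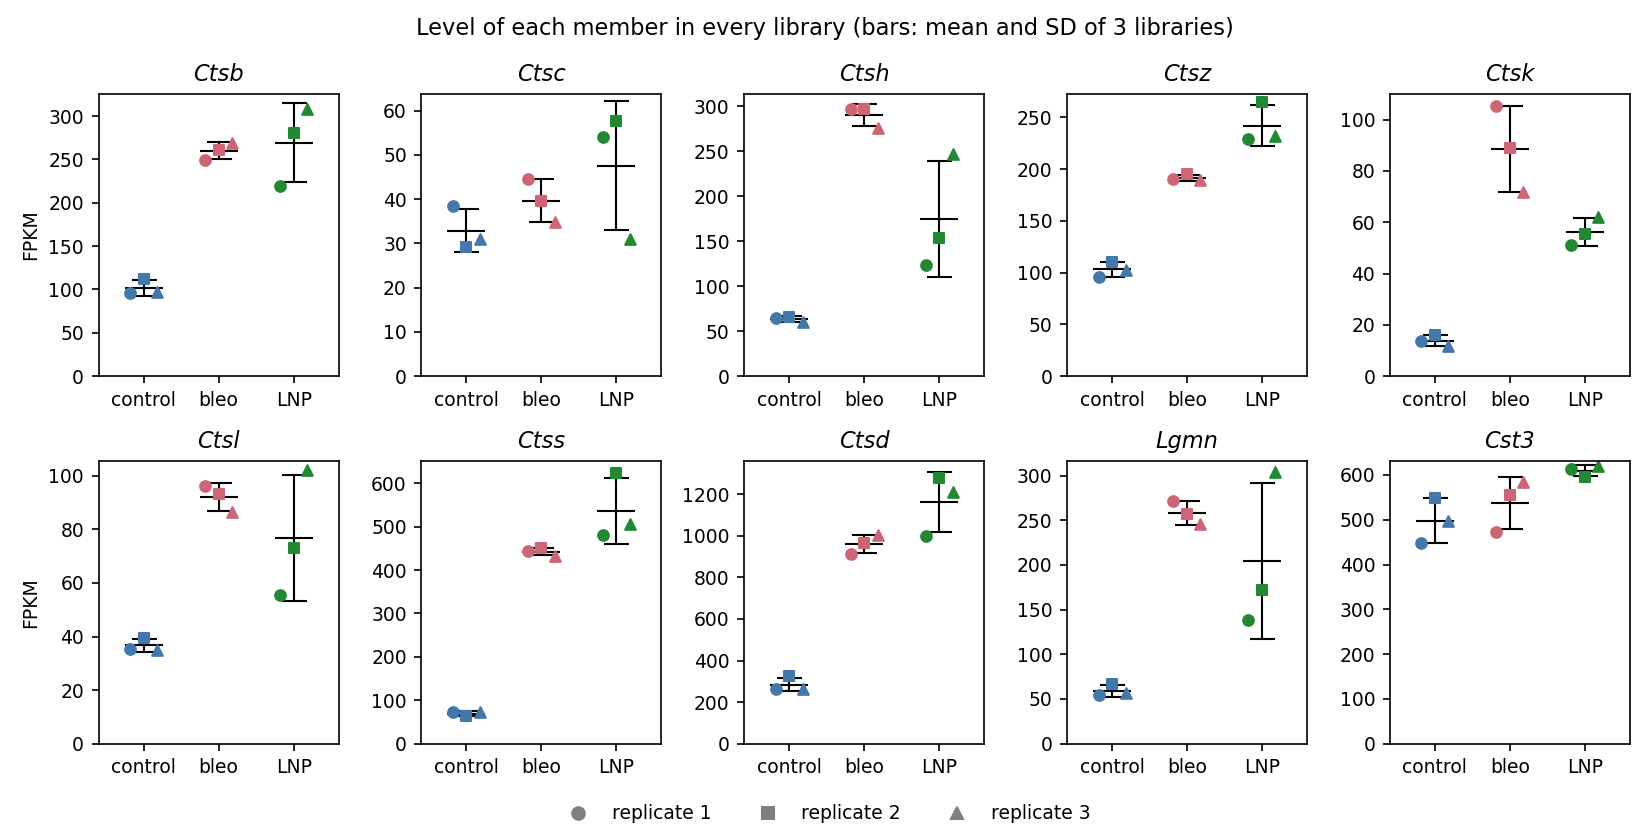
Level of each of the 10 genes in FPKM (the authors' fragment values scaled to transcript length and library size) on a linear axis from 0, in 3 control, 3 bleomycin (bleo) and 3 LNP libraries, with bars at the mean and SD. Ctsd reached the highest level, 1162 ± 146 FPKM in LNP, and LNP replicate 3 (green triangle) is near or above the bleomycin libraries for Ctsh, Ctsl and Lgmn.

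Stretches of RefSeq promoters (GRCm38.p6, 250 bases before to 50 after a gene's start) are shown for 4 genes whose window held a motif that was searched, since 8 of the genes rose together. The promoter table held 8 of the 10 genes, with 9 start sites, and had no entry for Ctsb or Ctsh. These 8 are not the 8 that rose, since they include Ctsc and Cst3, which were not called after bleomycin. In the first 3 lines the capitals mark CACGTG, the E-box, read on both strands, which for Ctsd is part of TCACGTGA. This is the core of the CLEAR element bound by TFEB and related factors at lysosomal genes. In the last line they mark 2 copies of GAAA with any 2 bases between them, the repeat that interferon regulatory factors bind, a motif that was added after the sequences had been read.
Ctsd, chr7:142387889-142387956, minus strand: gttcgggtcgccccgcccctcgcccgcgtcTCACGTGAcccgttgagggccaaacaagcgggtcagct
Lgmn, chr12:102439106-102439171, minus strand: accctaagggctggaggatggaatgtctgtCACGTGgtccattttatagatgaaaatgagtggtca
Ctsl, chr13:64370721-64370770, minus strand: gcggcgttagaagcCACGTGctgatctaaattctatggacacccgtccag
Ctss, chr3:95526735-95526785, plus strand: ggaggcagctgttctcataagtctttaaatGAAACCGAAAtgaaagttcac

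CACGTG was found in the windows of 3 of the 8 genes, against 7.15% of all 32851 windows and 8.09% of the 27025 genes of the table. In Ctsd it began 245 and 98 bases before the start, in Lgmn 49 bases before 1 of its 2 starts, and in Ctsl 236 bases before the start. TCACGTGA was found in the Ctsd window, against 0.974% of all windows. That motif with a G before it and a C after it was also searched. This longer form was in none of the 8 genes and in 0.326% of all windows. The GAAA repeat began 21 bases before the start of Ctss and occurred in 3.44% of all windows. TGANTCA, the AP-1 site, was in none of the 8 genes and in 7.81% of windows. Each match describes letters in a window and shows no binding.

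Cathepsin D (ENSMUSG00000007891, chromosome 7, 141929648 to 141941775, minus strand) is the main aspartic protease of the lysosome. Positions of genes are those of the deposited table, for which the sources used here name no genome build. Ctsd stood at 664, 868 and 658 CPM in control replicates 1, 2 and 3, at 2577, 2556 and 2576 CPM in bleomycin and at 2451, 3115 and 3030.0 CPM in LNP. Every challenged library lay above every control library, and the LNP libraries spread on both sides of the bleomycin ones. By edgeR Ctsd rose by 1.82 ± 0.16 on the log2 scale after bleomycin, or 3.52-fold (adjusted p = 0.00013). LNP differed from bleomycin by 0.16, with a 95% interval of -0.19 to 0.51 (edgeR adjusted p = 0.58), and from control by 1.97 ± 0.16 (edgeR adjusted p = 0.00028). Ctsd alone took 0.0678% to 0.0826% of all counts in control and 0.256%, 0.328% and 0.310% in the LNP libraries.

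Cathepsin B (ENSMUSG00000021939, chromosome 14, 63359911 to 63383372, plus strand) cuts proteins internally and also trims pairs of residues from their C-terminal end. Its level was 618, 775 and 623 CPM in control, 1811, 1783 and 1779 CPM in bleomycin and 1384, 1759 and 1988 CPM in LNP. The 3 bleomycin libraries were close together, and LNP replicates 1 and 2 lay below them and replicate 3 above. After bleomycin Ctsb rose 2.66-fold, by 1.41 ± 0.17 on the log2 scale (edgeR adjusted p = 0.00041). The LNP group differed from bleomycin by -0.07, with an interval of -0.43 to 0.30 (edgeR adjusted p = 0.85).

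Cathepsin L (ENSMUSG00000021477, chromosome 13, 64507151 to 64518704, minus strand) is an endopeptidase that is widely expressed. Ctsl stood at 245, 293 and 240.4 CPM in control, at 749.9, 683 and 612 CPM in bleomycin and at 376, 491 and 706 CPM in LNP. LNP replicates 1 and 2 lay between the control and the bleomycin ranges, and replicate 3 lay within the bleomycin range. Ctsl rose 2.63-fold after bleomycin, by 1.39 ± 0.22 on the log2 scale (edgeR adjusted p = 0.0015). LNP against bleomycin was -0.38, with an interval of -0.86 to 0.10 (edgeR adjusted p = 0.31). Without LNP replicate 3 the difference was -0.65 ± 0.16 and was called (edgeR adjusted p = 0.014). When each library was left out in turn, it ranged from -0.65 to -0.19 (edgeR adjusted p from 0.014 to 0.69).

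Cathepsin S (ENSMUSG00000038642, chromosome 3, 95434097 to 95463714, plus strand) trims the invariant chain from MHC class II in antigen-presenting cells and stays active at neutral pH. Ctss was at 105, 97.8 and 104 CPM in control, at 724, 689.6 and 643 CPM in bleomycin and at 683, 878 and 731 CPM in LNP. All 6 challenged libraries lay far above the controls, and the LNP range overlapped the bleomycin range and reached above it. The rise after bleomycin was 6.71-fold, or 2.75 ± 0.14 on the log2 scale (edgeR adjusted p = 1.3e-05). LNP was 7.48-fold above control (2.90 ± 0.14 on the log2 scale, edgeR adjusted p = 4.7e-05). It differed from bleomycin by 0.16, with an interval of -0.14 to 0.45 (edgeR adjusted p = 0.51).

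Cathepsin K (ENSMUSG00000028111, chromosome 3, 95406567 to 95416673, plus strand) is the collagen-degrading protease of osteoclasts and is also made by activated fibroblasts and macrophages. Its gene lies 17423 bases from Ctss on the same strand. Ctsk was the lowest of the 10 genes in control, at 22.1, 27.5 and 19.0 CPM. It stood at 191, 152 and 119 CPM in bleomycin and at 80.6, 86.9 and 99.8 CPM in LNP. The 3 groups did not overlap, and the LNP libraries lay between control and bleomycin. By edgeR Ctsk rose 6.72-fold after bleomycin (adjusted p = 8e-05), and LNP remained 1.96 ± 0.20 above control on the log2 scale (adjusted p = 0.001).

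Ctsk fell by 0.79 on the log2 scale in LNP against bleomycin (SE 0.20, 1.73-fold lower, edgeR adjusted p = 0.047). It was the 1 gene of the 10 called in that comparison, in which edgeR called 1.87% of all genes tested lower and 4.28% higher. The call was close to the threshold. Over 19 alternative settings the difference ranged from -0.94 to -0.60 and the adjusted p from 0.0042 to 0.24. The call was lost without control replicate 1 (adjusted p = 0.081) or 3 (0.064), bleomycin replicate 1 (0.18) or 2 (0.14) and LNP replicate 1 (0.16) or 2 (0.14), each by edgeR. Without LNP replicate 3 it was kept, at -0.87 ± 0.21 (edgeR adjusted p = 0.014).

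Cathepsin C (ENSMUSG00000030560, chromosome 7, 87927293 to 87960096, plus strand) removes N-terminal dipeptides and activates the serine proteases of neutrophil and cytotoxic granules. Ctsc was at 238, 194 and 190.1 CPM in control, at 310.1, 259 and 221 CPM in bleomycin and at 328, 348 and 191 CPM in LNP. Each challenged group overlapped the control libraries, and LNP replicate 3 was at the control level. By edgeR the difference after bleomycin was 0.35 ± 0.23 on the log2 scale, with an interval of -0.16 to 0.85 (adjusted p = 0.27). LNP against control was 0.48 ± 0.23 (edgeR adjusted p = 0.24), and without LNP replicate 3 it was 0.74 ± 0.15 and was called (edgeR adjusted p = 0.013). When each library was left out in turn, this difference ranged from 0.32 to 0.74 (edgeR adjusted p from 0.013 to 0.49).

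Cathepsin H (ENSMUSG00000032359, chromosome 9, 89936205 to 89958142, plus strand) is an aminopeptidase that in alveolar type 2 cells takes part in the processing of surfactant protein B. Ctsh stood at 309, 340.1 and 285 CPM in control, at 1603, 1505 and 1355 CPM in bleomycin and at 578, 716 and 1182 CPM in LNP. The 3 groups did not overlap, and LNP replicate 3 was close to the lowest bleomycin library. Ctsh rose 4.78-fold after bleomycin, by 2.26 ± 0.25 on the log2 scale (edgeR adjusted p = 0.0003). LNP was -0.85 ± 0.24 against bleomycin, with an interval of -1.38 to -0.32, and missed the threshold (edgeR adjusted p = 0.064). DESeq2 called it (-0.86, adjusted p = 0.0070). Without LNP replicate 3 edgeR gave -1.20 ± 0.14 (adjusted p = 0.00043). When each library was left out in turn, edgeR gave -1.20 to -0.65 (adjusted p from 0.00043 to 0.20).

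The markers of alveolar type 2 cells took another course than Ctsh after bleomycin. Of 12 such markers 10 fell and 0 rose after bleomycin. Leaving out any 1 control library left 6 called lower, and any 1 bleomycin library 5. Their sum was 26127 to 34814 CPM in control, 9392 to 11206 CPM in bleomycin and 25079, 20972 and 8096 CPM in LNP replicates 1, 2 and 3, so that the LNP library with the highest Ctsh had the lowest marker sum. Against bleomycin edgeR called 1 of the 12 higher in LNP, 12 without LNP replicate 3 and 0 without LNP replicate 1 or 2 or any 1 bleomycin library. Their part in the Ctsh result was not tested.

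Cathepsin Z (ENSMUSG00000016256, chromosome 2, 174269286 to 174280832, minus strand) is a carboxypeptidase. Ctsz was at 148, 182 and 156 CPM in control, at 328, 317 and 299 CPM in bleomycin and at 344, 396 and 356 CPM in LNP. The groups did not overlap, and the LNP libraries were the highest. It rose 1.95-fold after bleomycin, by 0.96 ± 0.13 on the log2 scale (edgeR adjusted p = 0.0007), the smallest difference among the 8 genes called. LNP against bleomycin was 0.22, with an interval of -0.07 to 0.50 (edgeR adjusted p = 0.32).

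Legumain (ENSMUSG00000021190, chromosome 12, 102360343 to 102406072, minus strand) cuts after asparagine and processes several cathepsins. Lgmn was at 134, 177 and 139 CPM in control, at 757, 674 and 623 CPM in bleomycin and at 335, 415 and 752 CPM in LNP. LNP replicates 1 and 2 lay between control and bleomycin, whereas replicate 3 was level with the highest bleomycin library. The rise after bleomycin was 4.56-fold, or 2.19 ± 0.28 on the log2 scale (edgeR adjusted p = 0.00059). LNP against bleomycin was -0.45, with an interval of -1.05 to 0.15 (edgeR adjusted p = 0.33). Without LNP replicate 3 it was -0.87 ± 0.16 and was called (edgeR adjusted p = 0.0044). When each library was left out in turn, the difference ranged from -0.87 to -0.23 (edgeR adjusted p from 0.0044 to 0.70).

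Cystatin C (ENSMUSG00000027447, chromosome 2, 148713642 to 148717496, minus strand) inhibits the cysteine cathepsins and legumain but not cathepsin D. Cst3 stood at 604, 793 and 663 CPM in control, at 717, 794 and 809 CPM in bleomycin and at 811, 782 and 836 CPM in LNP. Its groups overlapped, and it varied least of the 10 genes over the 9 libraries, with a root mean square spread of 0.149 on the log2 scale, against 0.326 to 1.33 for the others. By edgeR the difference after bleomycin was 0.17 ± 0.14, with an interval of -0.13 to 0.48 (adjusted p = 0.36). LNP differed from bleomycin by 0.07, with an interval of -0.24 to 0.37 (edgeR adjusted p = 0.81), and from control by 0.24 ± 0.14 (edgeR adjusted p = 0.33).

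**Figure D2:**
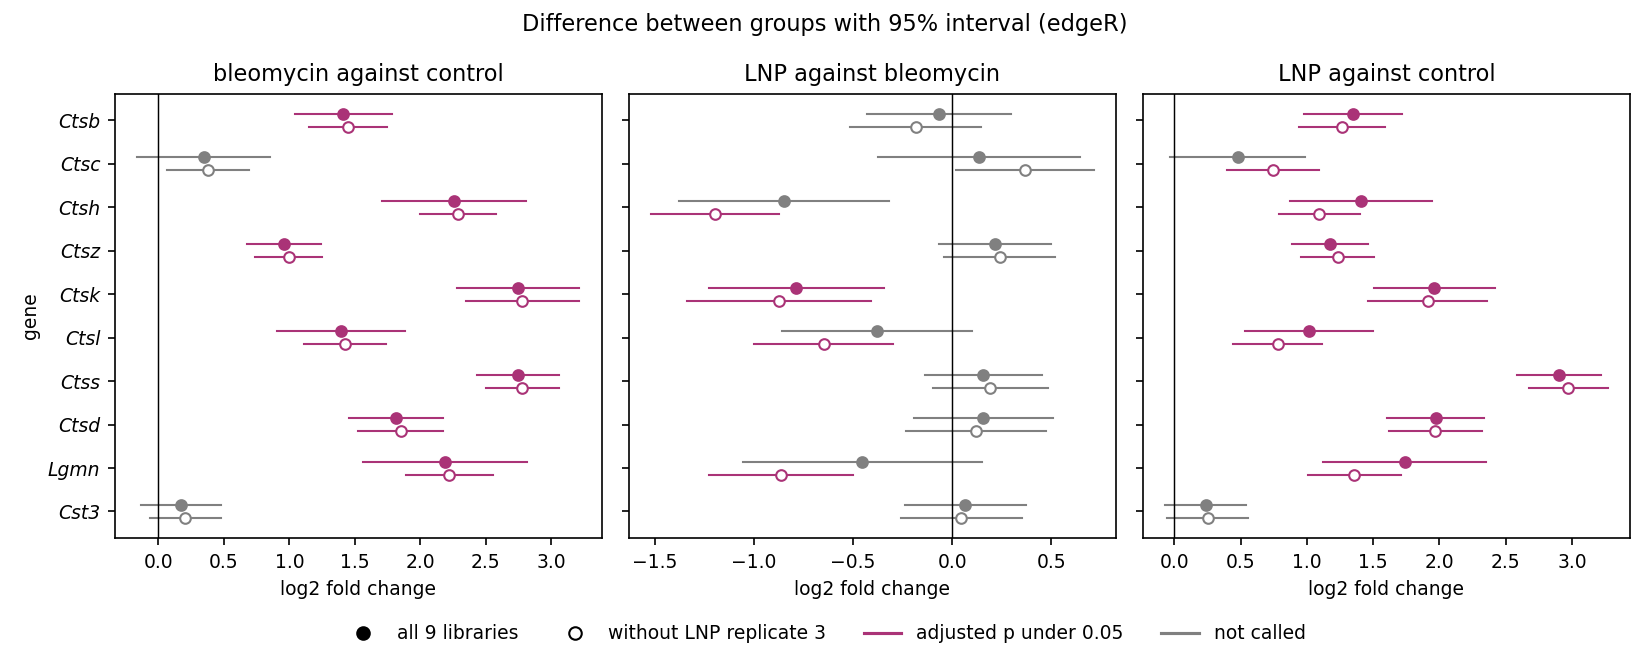
Log2 fold change of each gene with its 95% interval from edgeR, in 3 panels for bleomycin against control, LNP against bleomycin and LNP against control. Filled points use all 9 libraries, open points leave out LNP replicate 3, and purple marks an adjusted p under 0.05. In the middle panel Ctsk is purple with all 9 libraries, and Ctsh, Ctsl and Lgmn are purple too without that library.

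Across LNP against bleomycin as a whole, edgeR called 0 of the 10 genes higher and 1 lower, with 0 higher and 2 lower at an unadjusted p under 0.05, and the median log2 fold change of the 10 was -0.0001, against 0.04 over all genes tested. Without overlap between the groups, 1 gene was higher (Ctsz) and 2 were lower (Ctsh and Ctsk), where the shares over all genes tested were 15.4% and 14.5%. Without LNP replicate 3, edgeR called 4 of the 10 lower (Ctsh, Ctsk, Ctsl and Lgmn) and 0 higher, with 10.7% of 21373 genes called lower and 14.0% higher. Of the 10 genes 5 then lay below the bleomycin libraries without overlap and 2 above, where the shares over all genes were 29.7% and 31.4%.

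In LNP against control 8 genes were higher and 0 lower, where edgeR called 4.95% of all genes tested higher. The same 8 lay above control without overlap, as did 13.7% of all genes tested. Without LNP replicate 3 edgeR called 9 of the 10 higher, Ctsc being added, with 6.41% of all genes called higher. The median log2 fold change of the 10 was 1.38, against -0.003 over all genes tested. Ctsl was the gene of these 8 nearest to the threshold (1.01 ± 0.22, edgeR adjusted p = 0.02), and its call was lost without control replicate 1 (0.089) or 3 (0.086). Both comparisons with control share the 3 control libraries, and both comparisons with bleomycin share the 3 bleomycin libraries.

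**Figure D3:**
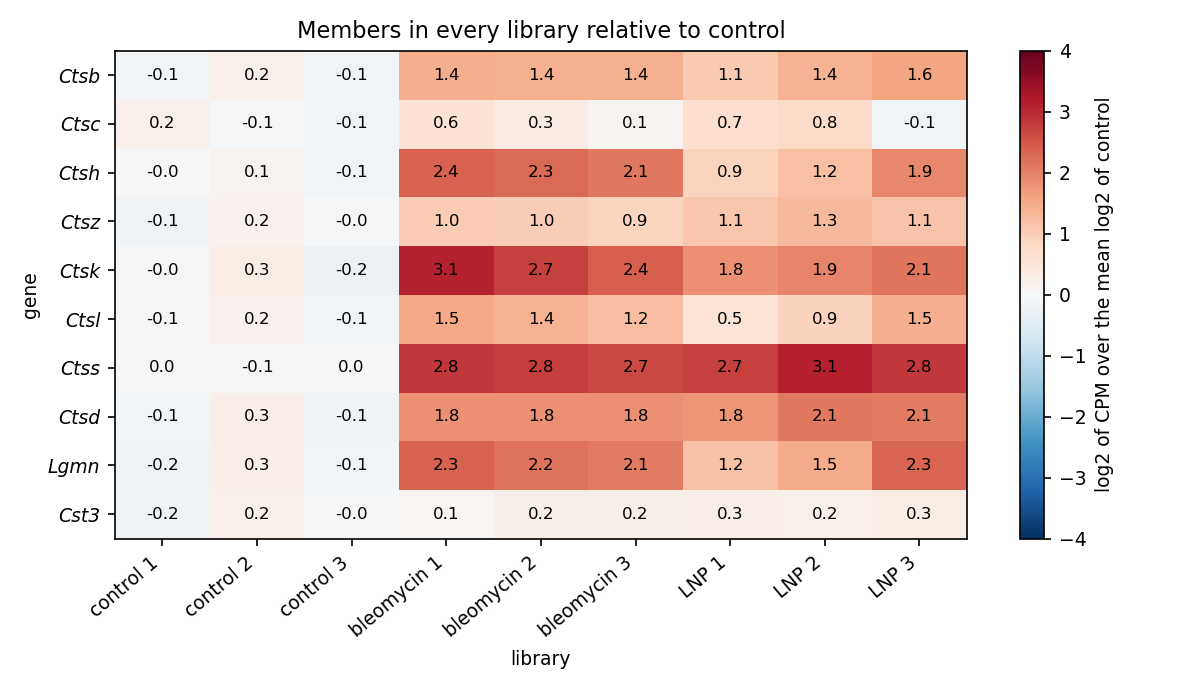
Colour scale of log2 CPM minus the mean log2 CPM of the control libraries, for each gene (rows) in each of the 9 libraries (columns). Red is above control and blue below. Ctsk and Ctss are reddest in the bleomycin libraries, and the row of Cst3 is nearly white in all 9.

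The order of levels between the genes was read from FPKM, which are per length. In control, Cst3 was highest at 497 ± 50.5 FPKM (SD, n = 3), above Ctsd at 285 ± 33.5. Ctsz (103 ± 7.14) and Ctsb (102 ± 8.99) came next and overlapped each other. Below them lay Ctss (69.3 ± 5.37), Ctsh (63.6 ± 3.17) and Lgmn (59.2 ± 6.70), in which each neighbour overlapped the next. Ctsl (36.7 ± 2.48) overlapped Ctsc (32.9 ± 4.89), and Ctsk was lowest at 13.8 ± 2.02 FPKM.

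In bleomycin libraries the inhibitor was no longer the highest. Ctsd led at 960 ± 44.0 FPKM, before Cst3 at 538 ± 58.5 and Ctss at 443 ± 8.60, with no overlap between these neighbours. Ctsh followed at 290 ± 12.2, then Ctsb at 260 ± 9.71 and Lgmn at 258 ± 13.2, which overlapped, and Ctsz at 192 ± 3.11. Ctsl (92.0 ± 5.15) and Ctsk (88.7 ± 16.8) overlapped, and Ctsc was lowest at 39.6 ± 4.85 FPKM.

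In LNP libraries Ctsd again led, at 1162 ± 146 FPKM, before Cst3 (610 ± 12.9) and Ctss (537 ± 75.8), and the latter pair overlapped. Ctsb (269 ± 45.7), Ctsz (242 ± 19.7), Lgmn (205 ± 87.6) and Ctsh (174 ± 64.5) followed, each neighbour overlapping the next. Ctsl (76.8 ± 23.6), Ctsk (56.1 ± 5.49) and Ctsc (47.6 ± 14.6) came last and overlapped likewise. The order of the last pair rests on LNP replicate 3, with Ctsk at 62.0 and Ctsc at 30.9 FPKM. In replicates 1 and 2 Ctsc was the higher, at 54.1 and 57.8 against 51.1 and 55.3 FPKM. Ctsz thus had rank 5 among the 10 in LNP and rank 7 in bleomycin, and Ctsh rank 7 in LNP and rank 4 in bleomycin.

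Ratios between the genes within a library were chosen after their values were seen and are given with no test. The summed FPKM of the 9 proteases was 1.64, 1.51 and 1.48 times that of Cst3 in control, 5.54, 4.76 and 4.46 times in bleomycin and 3.83, 4.97 and 4.84 times in LNP. The LNP ratios lay on both sides of the lowest bleomycin ratio and all above control. Ctsd, which cystatin C does not inhibit, was the largest part of the protease sum in every library. It held 265 to 323 FPKM in control and 915 to 1002 FPKM in bleomycin. The ratio is therefore not one of enzymes to their inhibitor. Ctss over Ctsk was 9.43, 11.3 and 8.16 in LNP, where control libraries had 5.28, 3.96 and 6.08 and bleomycin libraries 4.23, 5.06 and 6.04. Each LNP library thus had a higher ratio than every other library. Ctss over Ctsl was lowest in control libraries, at 2.04, 1.60 and 2.06. It was 4.61, 4.82 and 5.02 after bleomycin alone and 8.68, 8.55 and 4.95 in the LNP group, with LNP replicate 3 inside the bleomycin range.

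**Figure D4:**
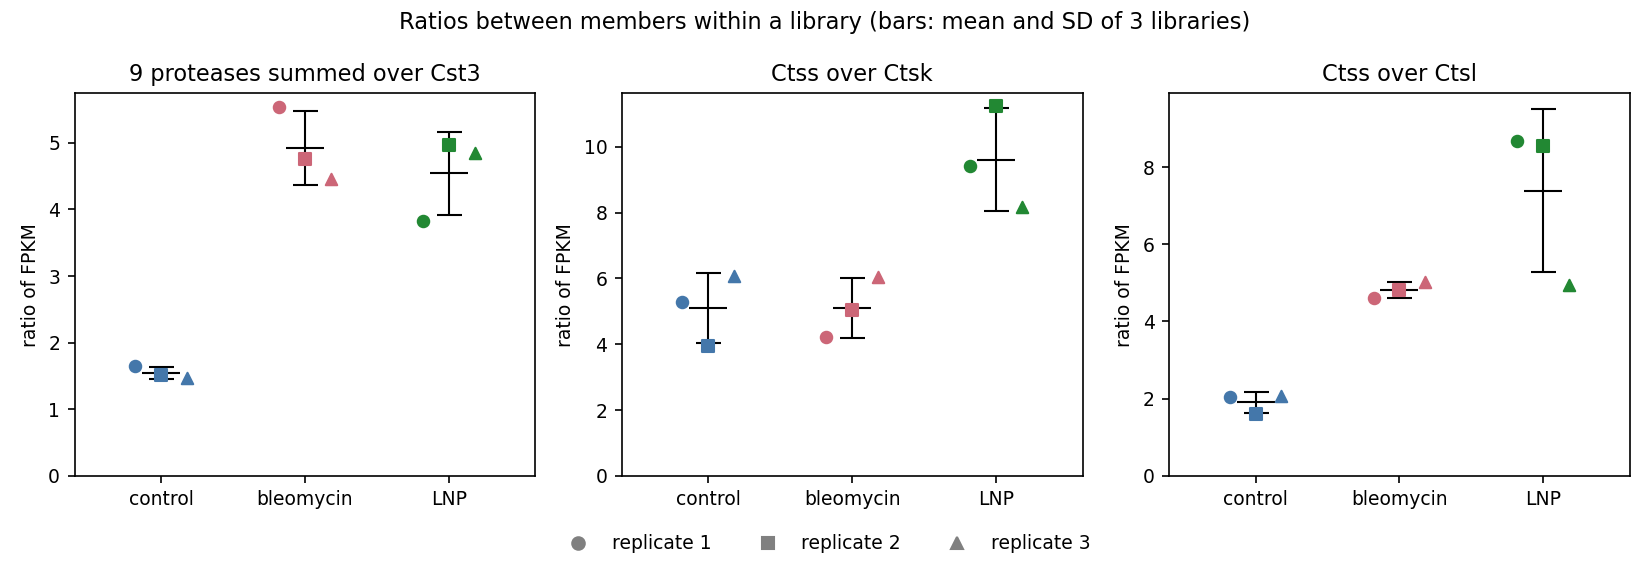
Ratios of FPKM within each library on linear axes from 0: the 9 proteases summed over Cst3, Ctss over Ctsk and Ctss over Ctsl, with bars at the mean and SD of 3 libraries. Ctss over Ctsk is between 3.96 and 6.08 in control and bleomycin libraries and between 8.16 and 11.3 in LNP libraries.

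The deposited transcript counts of a gene add up exactly to its gene count for each of the 10 genes. Ctsk and Ctsz have a single transcript in the table, and 1 transcript held at least 94.2% of the counts of Ctsb, Cst3 and Lgmn in every library. For Ctsd, ENSMUST00000151120 held between 26.8% and 51.6% of the counts in bleomycin libraries, from 39.2% to nearly all in control and from 27.2% to nearly all in LNP, and ENSMUST00000066401 nearly all of the rest. The split of Ctsl between ENSMUST00000021933 and ENSMUST00000222517 varied as much, with the first at 28.9% to 86.3% over the 9 libraries. Libraries of the same group thus differed widely in which transcript of Ctsd or Ctsl was assigned the counts. Of the counts of Ctsh, 32.0% to 41.5% were assigned to a transcript with a retained intron (ENSMUST00000127842) and 8.91% to 19.0% to one marked for nonsense-mediated decay (ENSMUST00000123320), transcript types being those of GENCODE M21. With transcripts tested singly by edgeR, the most abundant transcripts of Ctsd and Ctsl lost their calls in both comparisons with control (adjusted p = 0.21 and 0.10 after bleomycin, 0.14 and 0.45 in LNP).

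**Figure D5:**
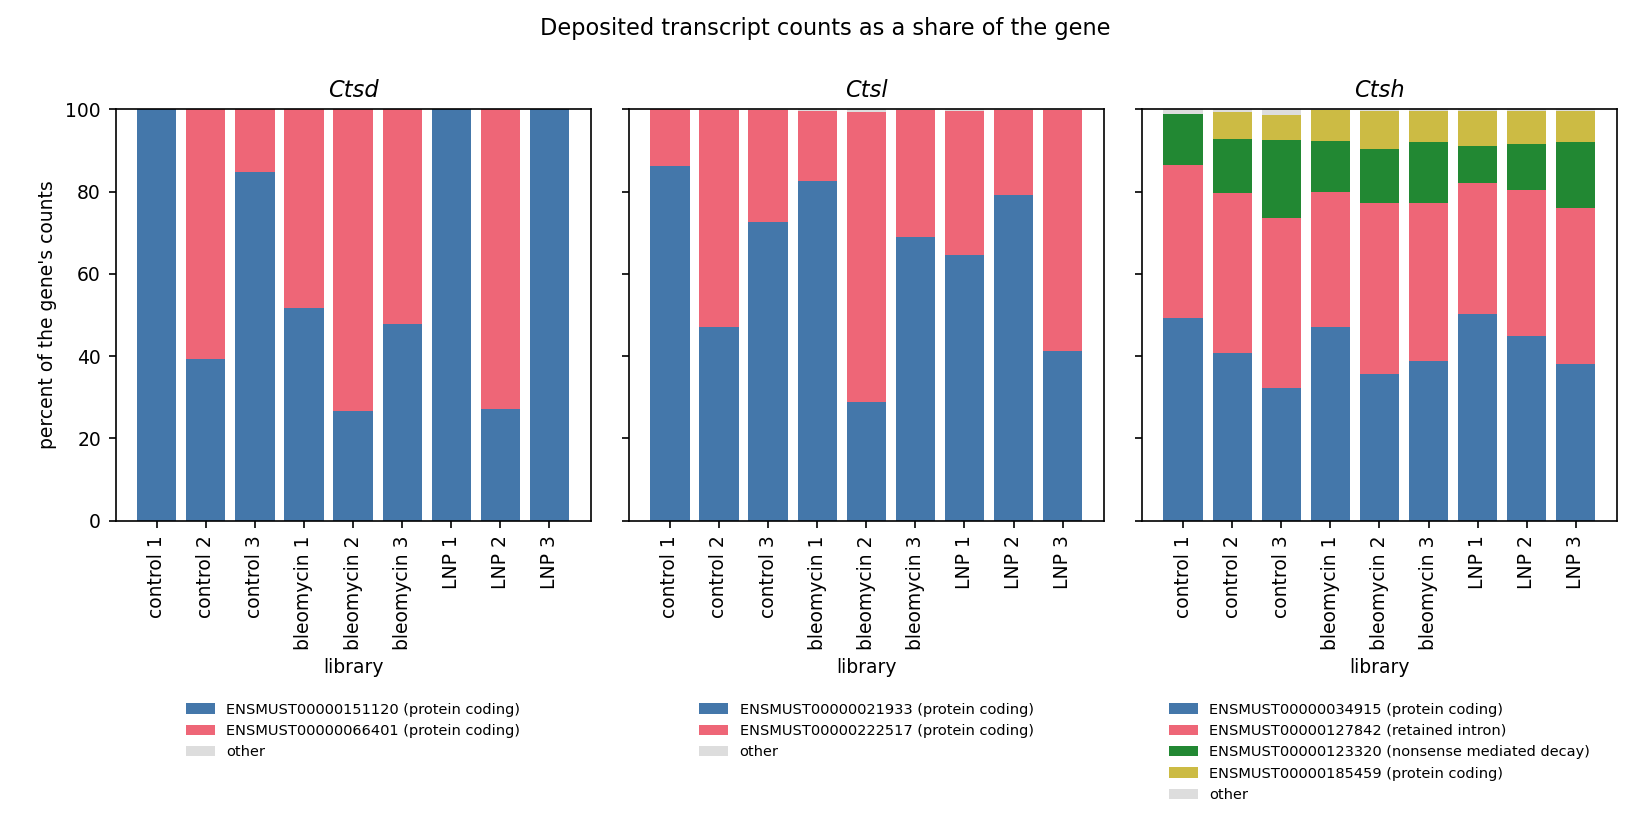
Percent of the counts of Ctsd, Ctsl and Ctsh assigned to each transcript (stacked bars) in the 9 libraries, with transcripts under 1% of the counts grouped as other. Ctsd varies between nearly all and 26.8% for the same transcript, including between libraries of 1 group, whereas the Ctsh shares vary less.

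Overlapping genes bear on a few of the counts. Ctsb overlaps Fdft1 (2556 to 4291 counts per library) and Ctsz overlaps Nelfcd (2231 to 3080), each on the opposite strand. The sources used here do not say whether the counting used the strand. On the same strand Ctsl overlaps Gm49230 (0 to 1 counts) and Ctss overlaps Hmgb1-ps5 (7 to 29).

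Cathepsins outside the 10 genes did not move as a group. Of 6 tested, Ctsa, the serine carboxypeptidase that protects other lysosomal enzymes, rose after bleomycin by 0.81 ± 0.15 (edgeR adjusted p = 0.0034), and Ctsw, of cytotoxic lymphocytes, and Ctso fell by 1.31 and 0.61 (edgeR adjusted p = 0.006 and 0.027). Their median was -0.29. In LNP against bleomycin edgeR called 0 of the 6, with 1 at an unadjusted p under 0.05, and DESeq2 called 1.

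Among 8 other inhibitors of these proteases that were tested, 5 rose and 1 fell after bleomycin, with a median of 2.27. Cstb, the cystatin that acts inside cells, went from 30.6 to 91.8 CPM (1.58 ± 0.19, edgeR adjusted p = 0.00041). The serpin Serpina3g went from 14.3 to 110 CPM (2.95 ± 0.37, edgeR adjusted p = 0.00053). Stfa2l1, a stefin A of mouse neutrophils, went from 0.740 to 12.7 CPM after bleomycin and stood at 0.854 CPM in LNP, where it fell against bleomycin by 3.89 (edgeR adjusted p = 0.0019). Its relative Stfa2 had no count in control or LNP and was at least 152-fold higher in bleomycin than in control, taking 3 counts summed over the control libraries as the limit, for counting error only. Stefin A genes are near-identical copies, so the split of counts between them is uncertain. Cst7, a cystatin of lymphocytes and myeloid cells, rose from 0.583 CPM in bleomycin to 2.25 CPM in LNP (1.95 ± 0.34, edgeR adjusted p = 0.015), with 1.52 to 2.09 CPM in control. In LNP against bleomycin 1 of the 8 inhibitors was called higher and 2 lower, and without LNP replicate 3 these were 1 and 6 of 10 tested.

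Of 32 other lysosomal hydrolases, 15 rose and 2 fell after bleomycin (18 and 4 without LNP replicate 3), with a median of 0.43, against 1.61 for the 10 genes. Acp5, the tartrate-resistant acid phosphatase, rose by 1.71 ± 0.17 (edgeR adjusted p = 0.00021) and Asah1, the acid ceramidase, by 1.28 (edgeR adjusted p = 0.00028). In LNP against bleomycin Asah1 fell by 0.81 (SE 0.14, edgeR adjusted p = 0.014). Gaa, the acid alpha-glucosidase, rose there by 0.64 ± 0.16 (edgeR adjusted p = 0.045), to 150 to 185 CPM, with 141 to 204 CPM in control. Those 2 were the hydrolases called in that comparison, and without LNP replicate 3 there were 10 higher and 2 lower. The count higher was 0 without control replicate 1 or 3, without any 1 bleomycin library and without LNP replicate 1 or 2, and the count lower was 0 without bleomycin replicate 1 or 2 or LNP replicate 1.

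Of 23 genes of the lysosomal membrane and its proton pump, 11 rose and 0 fell after bleomycin, with a median of 0.46. Gpnmb, a glycoprotein of lipid-laden macrophages, went from 15.7 to 261 CPM (4.05 ± 0.35, edgeR adjusted p = 0.00012). Cd68, a macrophage lysosomal membrane protein, rose by 2.30 (edgeR adjusted p = 9.4e-05), and Atp6v0d2, a pump subunit of macrophages and osteoclasts, by 1.98. In LNP against bleomycin edgeR called 0 of the 23, with 2 higher and 3 lower at an unadjusted p under 0.05, and DESeq2 called 1 lower. With LNP replicate 3 left out, edgeR called 0 higher and 3 lower.

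Of 11 genes that sort lysosomal enzymes or drive their transcription, 4 rose and 1 fell after bleomycin (4 and 3 without LNP replicate 3), with a median of -0.01. Tfec, a relative of TFEB found in macrophages, rose by 2.35 ± 0.25 (edgeR adjusted p = 0.00029), Mitf by 1.11 (edgeR adjusted p = 0.012) and Tfe3 by 0.51 (edgeR adjusted p = 0.025), whereas Tfeb was at -0.05 (edgeR adjusted p = 0.82). Grn, whose product accompanies cathepsin D in the lysosome, rose by 0.99 (edgeR adjusted p = 0.0023). M6pr, a mannose 6-phosphate receptor, was at -0.20 (edgeR adjusted p = 0.38). In LNP against bleomycin edgeR called 0 of the 11, with 1 higher and 2 lower at an unadjusted p under 0.05, and 4 higher and 1 lower without LNP replicate 3. Of the 118 tested genes that the deposited annotation places in the lysosome pathway, leaving out the 10 described here, 36 rose and 17 fell after bleomycin, with a median of 0.23.

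Markers of cells that could carry these proteases were counted in the same libraries. Of 14 macrophage markers, 11 rose and 1 fell after bleomycin, with a median of 2.02. In LNP against control 10 rose and 0 fell. Against bleomycin 1 rose and 1 fell in LNP, and without LNP replicate 3, 2 rose and 5 fell. The summed level of the list was 5477 to 6700 CPM in control, 4758 to 4911 CPM in bleomycin and 7657, 8734 and 4971 CPM in LNP replicates 1, 2 and 3. It was lower in bleomycin than in control although 11 of the markers were higher. Lyz2 alone held 5032 to 6165 CPM of this sum in control, 2722 to 2741 CPM in bleomycin and 6419, 7185 and 2494 CPM in LNP. The sum thus mostly follows Lyz2. Of 10 markers of resident alveolar macrophages 2 rose and 4 fell after bleomycin. Their sum was 552 to 578 CPM in control, 1005 to 1211 CPM in bleomycin and 380 to 512 CPM in LNP. Chil3 alone held 207 to 255 CPM of this sum in control, 798 to 1052 CPM in bleomycin and 160 to 406 CPM in LNP. The higher sum in bleomycin thus rests on Chil3. Car4, of the same list, went the other way, from 202 to 236 CPM in control to 55.0 to 65.8 CPM in bleomycin.

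Of 9 tested markers of osteoclast-like cells, in which Ctsk and Acp5 are abundant, 6 rose and 0 fell after bleomycin and 0 rose and 2 fell in LNP against bleomycin. The 2 calls were lost without control replicate 1 or 3, any 1 bleomycin library or LNP replicate 1 or 2. The list summed to 308 to 366 CPM in bleomycin, above 154 to 195 CPM in control and 241 to 289 CPM in LNP. Itgb3 alone held 101 to 107 CPM of this sum in bleomycin, 34.3 to 45.1 CPM in control and 50.7 to 81.5 CPM in LNP. Without Itgb3 the sums of bleomycin and LNP libraries overlapped. Calcr, the calcitonin receptor, reached 4.44 to 5.74 CPM in bleomycin, against 0.310 to 0.615 CPM in control and 1.72 to 2.87 CPM in LNP. Other markers of the list took another course in LNP. Acp5 stood at 68.2 to 75.3 CPM in bleomycin and at 67.8, 83.3 and 103 CPM in LNP. Dcstamp was at 0.311 to 0.741 CPM in bleomycin and at 1.78, 2.16 and 0.436 CPM in LNP. Of 11 fibroblast markers 4 rose and 2 fell after bleomycin. Against bleomycin 0 rose and 1 fell in LNP, and without LNP replicate 3, 2 rose and 6 fell. Their sums were 8787 to 9364 CPM in bleomycin, 4700 to 5817 CPM in control and 5502, 5897 and 7760 CPM in LNP replicates 1, 2 and 3. Col1a1 held 441 to 580 CPM of this sum in control and 2610 to 3004 CPM in bleomycin. Col1a2 and Col3a1 were also higher in bleomycin, and the higher sum rests on these collagen genes. Inmt, of the same list, went the other way, from 1895 to 2686 CPM in control to 204 to 366 CPM in bleomycin.

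Of 12 antigen-presenting markers, 10 fell and 1 rose after bleomycin and 8 rose in LNP against bleomycin by edgeR, whereas Ctss rose after bleomycin. The 10 were 6 without control replicate 3 or bleomycin replicate 2. The 8 were 10 without LNP replicate 3, 7 without any 1 control library, 0 without bleomycin replicate 2, 1 without bleomycin replicate 1, LNP replicate 1 or LNP replicate 2, and 3 without bleomycin replicate 3. Their sum was 3419 to 4046 CPM in control, 1344 to 1863 CPM in bleomycin and 6521, 6542 and 2500 CPM in LNP replicates 1, 2 and 3. All 8 lymphocyte markers fell after bleomycin, with a median of -3.28, and all 8 rose in LNP against bleomycin, with a median of 2.94 (6 to 8 when 1 library was left out). Their sum was 144 to 184 CPM in control, 16.6 to 17.2 CPM in bleomycin and 145 to 168 CPM in LNP. None of the listed markers was at 0 in every library. The part of these cells in the results on the 10 genes was not tested.

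Each of the 10 genes was also set beside the genes whose course over the 9 libraries was most like it, by the root mean square difference of mean-centred log2 CPM among 11808 genes with a mean of at least 5 CPM. Ctss was nearest to Siglec1 (0.172), Ms4a7 and Psrc1, and Ctsd to Acp5 (0.112), Csf2rb and Prrx2. Ctsz was nearest to Pld3 (0.0785), Cyba and Laptm5, and Ctsb to Cotl1 (0.0653), P2ry6 and Pstpip1. Nearest to Lgmn were Sema6b (0.0652), Wnt7b and Mmp14, and nearest to Ctsl were Traf4 (0.0879), Enpp1 and Adgrg3. Ctsh had Eno1, its near-identical copy Eno1b and Arid5a beside it, and Ctsk had Cd80 (0.175), Brinp1 and Ccnb1. For Ctsc they were Serpinb6b (0.115), H2bc4 and Flrt3, and for Cst3, whose own spread was small, Fcsk (0.0356), Pih1d1 and Bckdk.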

How the data were processed

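Poly(A) RNA of 9 lung libraries was made into strand-marked libraries and sequenced paired-end, per the labels' protocols. Per the submitters' processing notes the authors used fastp, StringTie and edgeR, with no versions given. The aligner, the genome build and the derivation of counts are not given in the sources available. Per the file headers the authors deposited counts of genes and of transcripts, which are whole numbers, and FPKM of genes. Counts gave the tests, and the deposited FPKM gave levels between genes.

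The test was edgeR 4.0.16 (R 4.3.3) on gene counts of all 9 libraries, with TMM scaling and filterByExpr, which left out 11877 of 32671 genes. CPM use TMM-scaled library sizes. SE and 95% intervals follow from the F statistic. Alternatives were DESeq2 1.42.0, relative log expression and library-size scaling, no count filter, only the 2 groups compared, a replicate block, limma 3.58.1 on log2(FPKM + 1) and log2(FPKM + 0.1), single transcripts, and leaving out each library. Within a group the chi-square per degree of freedom between libraries was at least 30.2, more than counting noise, so no file was a copy of another; this does not show that libraries came from separate animals. Plots were drawn with matplotlib 3.10.9 (Python 3.11.15, pandas 2.3.3). The fit was first tested on simulated counts.

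The 10 genes and the gene lists were chosen with earlier results of these data known. All 10 genes were named, with up to 4 called genes with the smallest p per pathway list and comparison and 3 genes of most similar course, of which some are left out here. Tfeb, M6pr, Calcr, Dcstamp, Itgb3, Lyz2, Chil3, Car4, Col1a1, Col1a2, Col3a1 and Inmt were named after their values were seen. The list from the deposited lysosome annotation and the list counts without LNP replicate 3 were added after seeing the data. Gene positions of the deposited table and RefSeq promoters (GRCm38.p6) are of different builds and were not joined.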

Additional observations from a re-analysis of the deposited data

How the results depend on the processing

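Over 19 alternatives, the 10 genes gave 188 of 190 values with the same call and direction in bleomycin against control, 183 of 190 in LNP against control and 168 of 190 in LNP against bleomycin. The number of the 10 called in LNP against bleomycin, 1 with all libraries, was 2 with DESeq2 and 0 with no count filter, with only the 2 groups compared, with a replicate block, with limma on log2(FPKM + 0.1), with limma on log2(FPKM + 1) and no filter, and with transcripts tested singly. Leaving out 1 library at a time gave 0 to 4 called there, 8 to 8 in bleomycin against control and 7 to 9 in LNP against control. The 4 came without LNP replicate 3. Ctsb in LNP against bleomycin changed from -0.07 to 0.055 with library-size scaling and 0.036 in the 3 limma settings, and ranged from -0.18 to 0.0645 when 1 library was left out. Ctsc ranged from -0.0196 to 0.37, and was below 0 without LNP replicate 2. Ctsl in LNP against control lost its call with only the 2 groups compared (edgeR adjusted p = 0.054) and with the block (0.0501). The cause of these changes was not tested. The 8 antigen-presenting markers called higher in LNP against bleomycin were 0 with only the 2 groups compared, and Gaa lost its call there, with no count filter and with the block. Library-size scaling moved the median of all genes in LNP against bleomycin from 0.04 to 0.16, and the calls from 891 higher and 389 lower to 1282 and 253. Calls over all genes were 7002 in bleomycin against control (2992 to 9102 over the alternatives), 1280 in LNP against bleomycin (81 to 5284) and 1671 in LNP against control (290 to 2938).

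Same-numbered libraries of different groups did not deviate together (correlations of -0.0176 to 0.0400 over 9 pairs, against -0.0737 to 0.0787 for other numbers). No pairing by number was thus seen, but correlations over all genes cannot exclude one that is weak or limited to few genes. With the replicate block 8 of the 10 genes were called in bleomycin against control, 0 in LNP against bleomycin and 7 in LNP against control, and 6143, 432 and 1119 of all genes. With 3 libraries a group, differences within the printed intervals around 0 were not detectable.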
